A study of Drosophila melanogaster with 8 samples.

Results

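The late RasV12 scrib tumour of the Drosophila eye-antennal disc was compared with control discs, using the 2 of 8 libraries that carry those labels, 1 library a side. The series profiled RNA of larval imaginal discs in 8 libraries, 7 of eye-antennal discs and 1 of wing discs. Each library came from the pooled discs of 50 to 60 wandering last instar larvae raised at 25 °C, which the labels say reached that stage at different times. The question the pair addresses is which genes differ in a malignant tumour model that the series' title ties to Hippo signalling and to a network of ectopic transcription factors.

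All 7 eye-antennal groups carry y, w and eyflp, the flip-out driver act>y+>Gal4 with UAS-GFP, and tub-GAL80 on an FRT82 e chromosome. In this system the FLP recombinase is expressed under an eyeless enhancer, so that GFP-marked clones form among unmarked neighbours and a disc is a mosaic of both. The control carries a plain FRT82 chromosome and was collected 5 days after egg laying. The late tumour carries UAS-Ras[V12], an active form of the Ras GTPase, and the scrib[2] allele on the FRT82 e chromosome (the label breaks off before its closing bracket), and was collected at 11 days. The other eye-antennal libraries, given here only beside a result, were the same tumour genotype at 7 days (the early tumour), RasV12 alone at 5 days, UAS-Bsk[DN] alone at 11 days, scrib[2] with Bsk[DN] at 6 days, and RasV12 with scrib[2] and Bsk[DN] at 6 days. Bsk[DN] is a dominant-negative form of the JNK Basket. The wing library, scrib[2] over scrib[1] at 6 days, carries no recombinase or Gal4 driver in its label. Genotype and age differ together between the late tumour and the control, so that their parts in any difference below cannot be told apart.

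Scribble holds the apical and basal sides of an epithelial cell apart, and cells that lose it are normally removed by JNK signalling. When such cells also carry active Ras they survive, overgrow and invade, and the larva stays in its last instar instead of forming a pupa. JNK acts through the AP-1 factors Jun and Fos, and its known outputs in discs include matrix proteases, the Unpaired cytokines that switch on JAK/STAT, and the relaxin-like hormone Ilp8, which delays metamorphosis.

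Assigned counts were 18508386 in the control and 19835809 in the late tumour, within the range of 17152279 to 21027972 over the 8 libraries. Levels are given in CPM, a gene's counts relative to the scaled total of its library, with no correction for gene length, so that levels are compared between libraries and not between genes. With 1 library a side there is no test, and genes are called by size. Calls required a difference of 4-fold or more on the log2 CPM scale and a level of 5 CPM or more in whichever library was higher. The fold printed beside a gene divides its CPM in one library by that in the other, and its interval covers counting error only. In bulk RNA, fewer cells of a type and less RNA per cell cannot be told apart. The control library stood apart from every other eye-antennal library in 157 genes whose level there was 4-fold or more that of each of them, including 12 of 15 muscle markers and 23 of 79 cuticle protein genes. Reads aligned to several places made up 27.8% of the counted and tallied reads in the late tumour and 21.1% in the control.

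Of 10029 genes considered, 596 were called higher in the late tumour, which is 5.94% of them, and 395 were called lower, which is 3.94%. At 2-fold, the threshold used for the gene lists, 1617 genes were higher (16.1%) and 1153 were lower (11.5%), and the median log2 fold over all genes was -0.02. The counts of the lists below stand against these shares. Of all 10029 genes, the late tumour had the highest level of the 7 eye-antennal libraries for 1913 and the lowest for 2146. Counts of list members for which it was highest or lowest stand against these. Of the 596 genes called higher, 292 were 10-fold or more apart and 34 were 100-fold or more. Among the 395 called lower, 213 were 10-fold or more apart and 52 were 100-fold or more. The late tumour had the highest level of the 7 eye-antennal libraries for 515 of the 596 higher genes. Of the lower genes, the late tumour had the lowest level for 156 of the 395, and 157 of the 395 were the genes that stood apart in the control library.

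**Figure D1:**
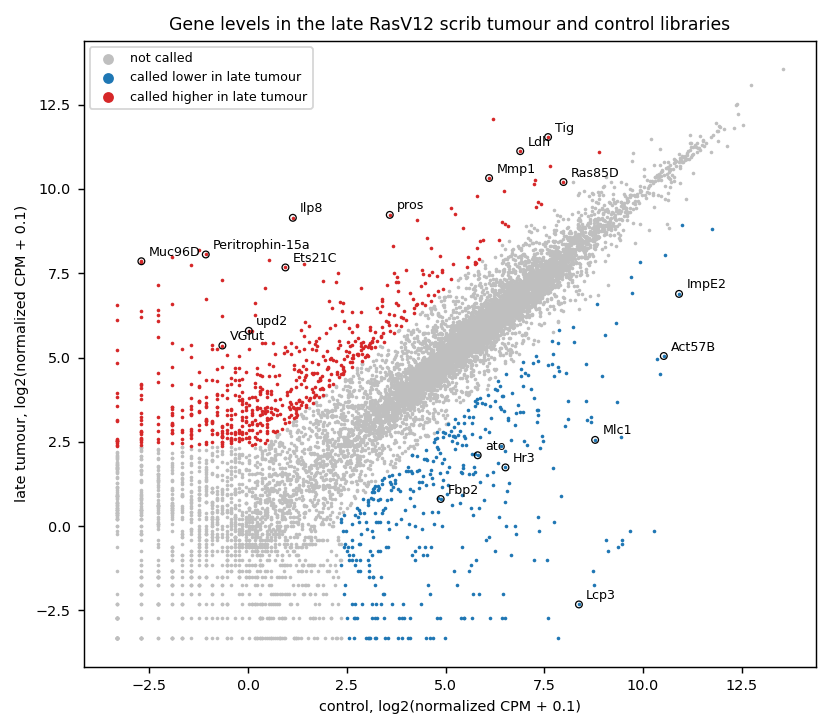
Level of each considered gene in the control (horizontal) and the late tumour (vertical), both as log2 of normalized CPM plus 0.1, with the 596 genes called higher in red, the 395 called lower in blue and the rest in grey. Ilp8, Ets21C and upd2 lie far above the diagonal, and Lcp3, Act57B and Hr3 far below it.

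The labels were checked on the genes the genotypes touch. Ras85D, the gene of the transgene (FBgn0003205, chromosome 3R, 9510561 to 9513067 in BDGP6), stood at 253 CPM in the control and 1181 CPM in the late tumour, a 4.66-fold difference (95% interval 4.52 to 4.81). The other libraries with UAS-Ras[V12] held 464 CPM (RasV12 alone), 426 CPM (RasV12 scrib BskDN) and 655 CPM (early tumour), and those without it 252 to 284 CPM, so that the groups with and without the transgene did not overlap and the late tumour was highest. For scrib the levels were 399.8 CPM in the control and 363 CPM in the late tumour, close to each other in these mosaic discs. Basket, which is not altered in this pair, stood at 99.0 and 96.0 CPM. The gene y, whose wild-type copy sits in the flip-out driver of both groups, stood at 14.6 CPM in the control and 73.9 CPM in the late tumour. Genes of the eye and antenna were present in both libraries: ey, the selector gene of the eye, held 92.2 CPM in the control and 93.0 CPM in the tumour, and Dll, which acts in the antenna and other limbs, 66.8 and 31.2 CPM.

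The growth delay hormone, the Unpaired cytokines, the Ets factor Ets21C and the matrix protease Mmp1 were all higher in the late tumour. Ilp8 (FBgn0036690, chromosome 3L, 17029812 to 17032080) stood at 2.09 CPM in the control and 566 CPM in the late tumour, a 270.2-fold difference (95% interval 198 to 380.2). In the other eye-antennal libraries it held 364 CPM (early tumour), 16.8 CPM (RasV12), 0.795 CPM (BskDN), 3.36 CPM (scrib BskDN) and 10.6 CPM (RasV12 scrib BskDN). Both tumour libraries were thus far above all 5 others, of which RasV12 was the highest. Among the other members of the regeneration and growth delay list, the receptor tyrosine kinase gene Alk stood at 7.2 and 81.3 CPM (11.3-fold) and the NADPH oxidase gene Nox at 25.1 and 185 CPM (7.37-fold). For Alk the early tumour was at 5.67 CPM, so that the high level was seen in the late tumour and not in the early one. The Duox maturation factor gene mol was 2.43-fold higher (21.3 to 51.8 CPM), and Ptth, the brain hormone that sets off ecdysone release, was 10.1-fold higher at low level (0.322 to 3.24 CPM). Outside the tumours, the highest eye-antennal level was 29.9 CPM for Alk. For Ptth it was 2.98 CPM, near that of the late tumour. In all, 5 of 9 members were past 2-fold on the higher side and 0 on the lower, with a median log2 fold of 1.28. The Ilp8 receptor gene Lgr3 was within 2-fold (3.97 and 5.74 CPM), as were rgn (286 and 367 CPM), NLaz (5.26 and 5.94 CPM) and puf (206 and 207 CPM).

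The 3 Unpaired ligands lie next to each other on the X chromosome, starting at 18240654 (upd2), 18277233 (upd3) and 18305354 (upd1). In the control upd2 held 0.913 CPM and in the late tumour 55.3 CPM, a 60.6-fold difference (95% interval 37.7 to 104). For upd3 the values were 0.967 and 55.6 CPM (57.5-fold) and for upd1 4.51 and 62.7 CPM (13.9-fold). The early tumour was as high, with 59.8 CPM for upd2, 43.4 for upd3 and 72.7 for upd1, and the highest level in any other eye-antennal library was 7.85 CPM, for upd1 in RasV12 scrib BskDN. The JAK/STAT feedback inhibitor Socs36E stood at 58.8 CPM in the control and 349.6 CPM in the late tumour (5.94-fold), and chinmo, a BTB transcription factor gene that responds to the pathway, at 62.1 and 361 CPM (5.81-fold). These 5 genes, which are the ligands and outputs, were the members of the list past 2-fold, out of 14. The core of the pathway differed little: the receptor gene dome held 159 and 243 CPM, the kinase gene hop 88.9 and 87.0 CPM, and Stat92E 230.3 and 249 CPM. The remaining 6 members (et, Socs16D, Socs44A, zfh1, zfh2 and Su(var)2-10) were between 1.44-fold lower (et) and 1.34-fold higher (Socs44A).

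Ets21C (FBgn0005660, chromosome 2L, 544925 to 552923), a transcription factor that acts with AP-1 in discs, stood at 1.83 CPM in the control and 204 CPM in the late tumour, a 112-fold difference (95% interval 79.8 to 161). It held 154 CPM in tumours at 7 days and 3.13 to 15 CPM in the 4 other eye-antennal libraries, so that the tumours and the other libraries did not overlap. Of the 21 stress transcription factors 10 stood 2-fold or more above the control and 0 below it, and the median log2 fold was 0.97, where all genes had -0.02. The Fos gene kay was 2.62-fold higher (125 to 326 CPM) and the Jun gene Jra 1.53-fold higher (68.0 to 104 CPM). The bZIP genes Irbp18 and Xrp1, whose products bind each other, were 2.72-fold and 2.11-fold higher, from 20.1 to 54.8 CPM and from 504 to 1064 CPM. The nuclear receptor gene ftz-f1 was 2.54-fold higher (37.9 to 96.4 CPM), p53 2.81-fold, the NF-kappaB factor Dif 2.47-fold and the growth regulator Myc 2.16-fold. Levels in the eye-antennal libraries outside the tumours reached 40.9 CPM for Dif and 995 CPM for Xrp1. The late tumour held 38.3 and 1064 CPM of them. Atf3 stood just under the threshold, at 36.3 and 71.3 CPM (1.97-fold). slbo, the C/EBP factor of migrating border cells in the ovary, was at 1.80 CPM in the late tumour and 1 count in the control, too low to be called. The rest ran from 1.61-fold lower (CrebA) to 1.49-fold higher (dl): foxo was 1.49-fold lower, and vri, cnc, crc, tai, Stat92E and Rel were 1.07- to 1.47-fold higher.

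Within the JNK cascade itself 3 of 14 members were at least 2-fold higher and 1 lower, and the median log2 fold was 0.25. The pathway's own target and phosphatase puc stood at 46.4 CPM in the control and 166 CPM in the late tumour (3.59-fold), with 153 CPM in tumours at 7 days and 116 CPM in scrib BskDN. The adaptor gene Traf4 was 2.93-fold higher (45.9 to 134 CPM). The TNF receptor gene wgn went the other way, from 36.4 CPM in the control to 15.2 CPM (2.39-fold lower), while the other receptor gene, grnd, was at 98.4 and 119 CPM. The TNF gene egr and the kinase genes msn, hep, Tak1, Mkk4, slpr and bsk, together with Tab2, were all within 1.69-fold of the control, so that the members past 2-fold were puc, kay, Traf4 and wgn.

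Mmp1 (FBgn0035049, chromosome 2R, 24671294 to 24688184), a secreted protease that cuts basement membrane, stood at 68.6 CPM in the control and 1282 CPM in the late tumour, an 18.7-fold difference (95% interval 17.7 to 19.8). The early tumour held 1309 CPM, the scrib wing discs 1118 CPM, and the other eye-antennal libraries 102 to 166 CPM. The second matrix metalloprotease gene, Mmp2, was 1.66-fold lower (497 to 299 CPM) and the inhibitor gene Timp 1.40-fold higher (13.0 to 18.2 CPM), both within 2-fold. Among basement membrane and matrix genes Tig, the gene of the integrin ligand Tiggrin, was 15.4-fold higher (95% interval 14.9 to 15.9), from 193 to 2977 CPM, and the early tumour held 4051 CPM. The list had a median log2 fold of -0.66 over 12 members, and 2 of them were at least 2-fold lower (Pxn and Ndg). Of 11 integrin and integrin-linked genes 1 was at least 2-fold higher, rhea (361 to 988 CPM, 2.74-fold), which encodes talin, the link from integrins to actin. The 1 lower was the integrin subunit gene ItgaPS4 (20.9 to 2.39 CPM, 8.73-fold), one of the genes that stood apart in the control. Of 15 cytoskeleton and motility genes 3 were past 2-fold, all higher: scaf (3.43-fold), the spectraplakin gene shot (2.13-fold) and the filamin gene cher (2.04-fold). None of 18 polarity and adherens junction genes and none of 12 septate junction genes was past 2-fold at this threshold of size.

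**Figure D2:**
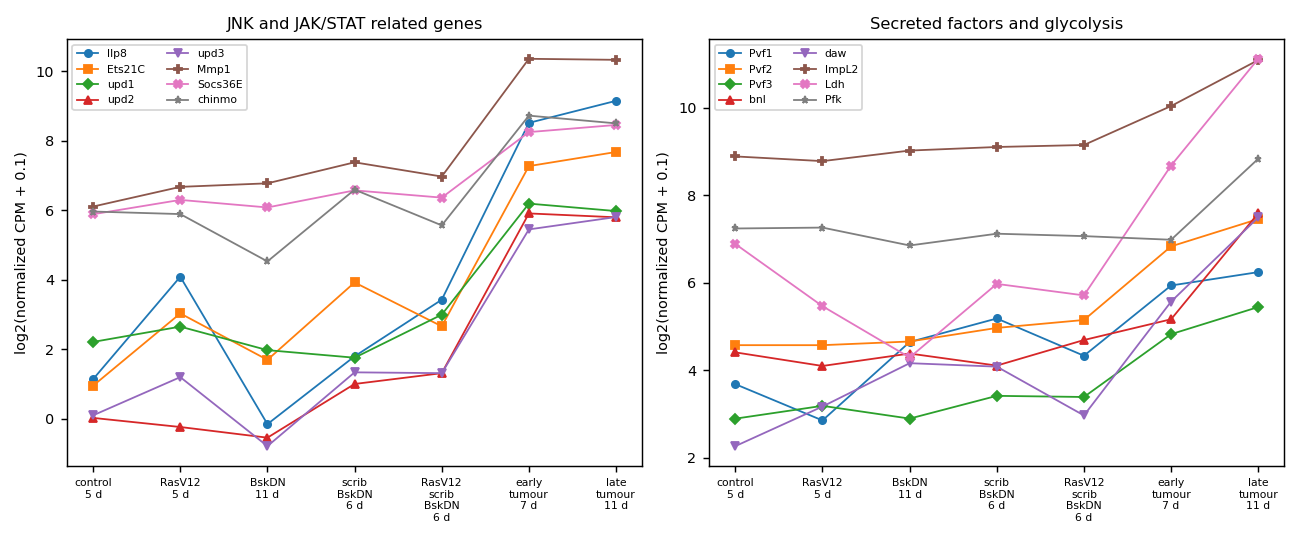
Levels of tumour-related genes in the 7 eye-antennal libraries, as log2 of normalized CPM plus 0.1, with 1 point per library and lines that only join the points of a gene; the left panel holds JNK and JAK/STAT related genes and the right panel secreted factors and glycolytic enzymes. Ilp8, Ets21C, Mmp1 and the 3 upd genes are high in both tumours, and bnl and Ldh are highest in the late tumour.

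Hippo signalling restrains the co-activator Yorkie, which drives growth and survival genes. Of 12 Yorkie targets 5 were at least 2-fold higher and 0 lower, with a median log2 fold of 0.92. Of 16 components 2 were higher, and both of these, kibra and fj, are also on the target list. The component median was 0.01. The glypican gene dally held 331 CPM in the control and 934 CPM in the late tumour (2.83-fold), the EGFR ligand gene vn 21.3 and 52.6 CPM (2.47-fold) and kibra 42.4 and 112 CPM (2.64-fold). The target ex stood just under the threshold at 1.92-fold, and the classical growth and survival targets CycE (1.17-fold) and Diap1 (1.21-fold) were close to the control.

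Among feedback inhibitors of Ras signalling several were higher, and the receptor and kinase genes were within 2-fold. sty, the Sprouty antagonist of receptor tyrosine kinases, stood at 95.7 CPM in the control and 482 CPM in the late tumour (5.04-fold). It was nearly as high in RasV12 alone (463 CPM) and in RasV12 scrib BskDN (392 CPM). The ERK phosphatase gene Mkp3 was 3.84-fold higher (46.9 to 180.2 CPM), the secreted EGFR inhibitor gene aos 3.58-fold and the Ets antagonist gene edl 2.32-fold. With the ligand gene vn these were the 5 members at least 2-fold higher of 21. The 1 lower member was the rhomboid protease gene ru, 8.82-fold lower, from 45.8 to 5.19 CPM. Egfr, Raf, Dsor1 and rl, the receptor and kinases, were each within 2-fold, between 1.15- and 1.5-fold lower.

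Several genes of secreted ligands were higher in the late tumour. Of 9 genes of PDGF/VEGF and FGF signalling 4 were past 2-fold, all of them ligands. All 3 PDGF/VEGF ligand genes were higher: Pvf2 went from 23.8 to 176 CPM (7.40-fold), Pvf1 from 12.8 to 75.9 CPM (5.94-fold) and Pvf3 from 7.36 to 43.6 CPM (5.93-fold). The FGF gene bnl, which draws out tracheal branches, stood at 21.2 CPM in the control and 193 CPM in the late tumour, a 9.10-fold difference (95% interval 8.20 to 10.1). The early tumour held 35.9 CPM and the other eye-antennal libraries 17.1 to 25.8 CPM, so that bnl was more than 4-fold higher in the late tumour than in each of them. The activin-like ligand gene daw went from 4.73 to 181 CPM (38.2-fold, 95% interval 30.9 to 47.8), with 47.5 CPM in the early tumour and at most 17.9 CPM elsewhere among eye-antennal libraries. The BMP-binding protein gene cv-2 was 6.33-fold higher (27.2 to 172 CPM), sog 2.64-fold and Actbeta 2.81-fold, and with dally these were the 5 higher members of 18. dpp itself was 1.30-fold higher. The Wnt gene Wnt4 was 3.77-fold higher (10.4 to 39.3 CPM), while Wnt6 was 2.11-fold and the co-receptor gene arr 2.25-fold lower. The Hedgehog list had 1 member higher, the co-receptor gene boi (2.52-fold), and 1 lower, inv (2.11-fold). Of 21 Notch pathway genes 5 were lower and 1 was higher (log2 fold 2.06, not called), and the median log2 fold was -0.24. The lower ones were all genes of the E(spl) complex that Notch switches on, led by E(spl)mdelta-HLH (60.2 to 12.5 CPM, 4.80-fold) and E(spl)mgamma-HLH (3.56-fold).

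In the insulin and TOR list, ImpL2, Thor and REPTOR were higher. ImpL2, a secreted protein that binds insulin-like peptides, stood at 475 CPM in the control and 2186 CPM in the late tumour (4.60-fold, 95% interval 4.50 to 4.71), with 1055 CPM in the early tumour. The translation repressor gene Thor was 3.76-fold higher (85.8 to 323 CPM), and REPTOR, the factor that TORC1 holds out of the nucleus, 3.45-fold (29.4 to 101 CPM). These were the 3 members past 2-fold of 12, and none was lower.

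Lactate dehydrogenase and some glycolytic enzyme genes were higher, and no respiratory chain gene was past 2-fold. Ldh (FBgn0001258, chromosome 3L, 6259105 to 6262694), the lactate dehydrogenase gene, stood at 119 CPM in the control and 2229 CPM in the late tumour, an 18.8-fold difference (95% interval 18.0 to 19.6). It held 411 CPM in tumours at 7 days and 19.6 CPM in BskDN, the other library collected at 11 days. The rate-setting enzyme gene Pfk was 3.02-fold higher (152 to 458 CPM) and the hexokinase gene Hex-A 2.39-fold (92.3 to 220.1 CPM). The list median was 0.67 over 12 members, with 3 past 2-fold, and the late tumour had the highest level of the 7 eye-antennal libraries for 8 of them. Against the same control the early tumour's median was -0.44 and that of BskDN -0.47, both below 0. The respiratory chain had a median of -0.39 over 17 members.

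Some glutathione transferase genes were much higher in the late tumour, and others were lower. Of 17 antioxidant and detoxification genes 8 were higher by 2-fold or more and 1 lower, and the late tumour was the highest of 7 for 11. The glutathione transferases GstD2, GstD3 and GstD5 lie in one cluster on chromosome 3R, starting at 12371971, 12373068 and 12375733. GstD5 had 2 counts in the control and 463 in the late tumour (23.1 CPM, 215-fold, 95% interval 59.2 to 1781), GstD3 went from 2.42 to 56.7 CPM (23.5-fold) and GstD2 from 0.806 to 20.4 CPM (25.3-fold). GstE6 held 10.3 CPM in the control, 106 CPM in the late tumour (10.2-fold) and at most 16.9 CPM in any other eye-antennal library. The glutathione synthesis gene Gclc was 3.47-fold higher. Over all 31 glutathione transferases 14 were higher and 6 lower. The lowest against the control was GstE14, which ecdysone production in the ring gland needs, from 21.6 to 0.449 CPM (48.1-fold lower).

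Of 29 cell cycle and replication genes none was past 2-fold in either direction. Their median log2 fold was -0.35, and the late tumour had the lowest level of the 7 eye-antennal libraries for 19 of them. In the early tumour the median against the control was 0.07. Among cell death genes the inhibitor-of-apoptosis antagonists skl and grim were called higher, skl from 0.43 to 6.48 CPM (15.1-fold) and grim from 1.07 to 11.1 CPM (10.3-fold). The related genes rpr and hid were within 2-fold (1.86-fold and 1.42-fold higher), as were the caspase genes Dronc, Drice and Dcp-1. Autophagy genes had 2 of 15 members past 2-fold on the log2 scale, both higher: the receptor gene ref(2)P (119 to 304 CPM, 2.55-fold) and Atg17 (2.06-fold). The list of endoplasmic reticulum stress genes had 3 of 9 higher: Sil1 (3.32-fold), Ero1L (2.92-fold) and the sensor gene Ire1 (2.00-fold).

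Genes that commit cells to the retina were lower in the late tumour, and ey at the head of that program was not. Of 12 retinal determination genes 5 were at least 2-fold lower and 0 higher, the median log2 fold was -0.91, and the late tumour was the lowest of the 7 eye-antennal libraries for 10. dac, which acts with eya and so in this step, stood at 331 CPM in the control and 86.2 CPM in the late tumour (3.84-fold lower, 95% interval 3.64 to 4.05). For eya the values were 250.4 and 83.9 CPM (2.99-fold lower), and for so 99.4 and 34.1 CPM (2.91-fold lower). The paired genes dan and danr were 4.14-fold and 2.72-fold lower, from 80.6 to 19.5 CPM and from 62.3 to 22.9 CPM. The early tumour lay between for all 5, with 181 CPM of dac, 136 of eya, 71.9 of so, 29.4 of dan and 28.8 of danr. The genes at the top of the hierarchy differed less: ey was at 92.2 and 93.0 CPM and toy at 288 and 172 CPM (1.67-fold lower). The remaining members ran from 1.93-fold lower (hth) to 1.02-fold lower (tsh), with eyg at 1.85-fold, toe at 1.55-fold and Optix at 1.10-fold lower.

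Photoreceptor specification genes followed the same direction, apart from 3 general neural genes. Of 19 members 11 were at least 2-fold lower. ato, the proneural gene that founds each ommatidium, held 56.1 CPM in the control, with 11.7 in the early and 4.19 in the late tumour (13.4-fold lower, 95% interval 10.7 to 16.9). gl, the zinc finger gene all photoreceptors need, held 162 CPM in the control and 29.8 CPM in the late tumour (5.42-fold lower). sens was 5.23-fold lower, ro 3.62-fold, the receptor gene sev 3.34-fold and its ligand gene boss 3.23-fold. The 3 higher members were pros (11.9 to 601 CPM, 50.4-fold), fne (4.62 to 152 CPM, 33.0-fold) and elav (109 to 238 CPM, 2.18-fold), which neurons use throughout the nervous system. In the antennal list 5 of 12 members were lower, led by ss (30.6 to 6.19 CPM, 4.95-fold) and C15 (4.47-fold), and 1 was higher, bab1 (2.13-fold).

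**Figure D3:**
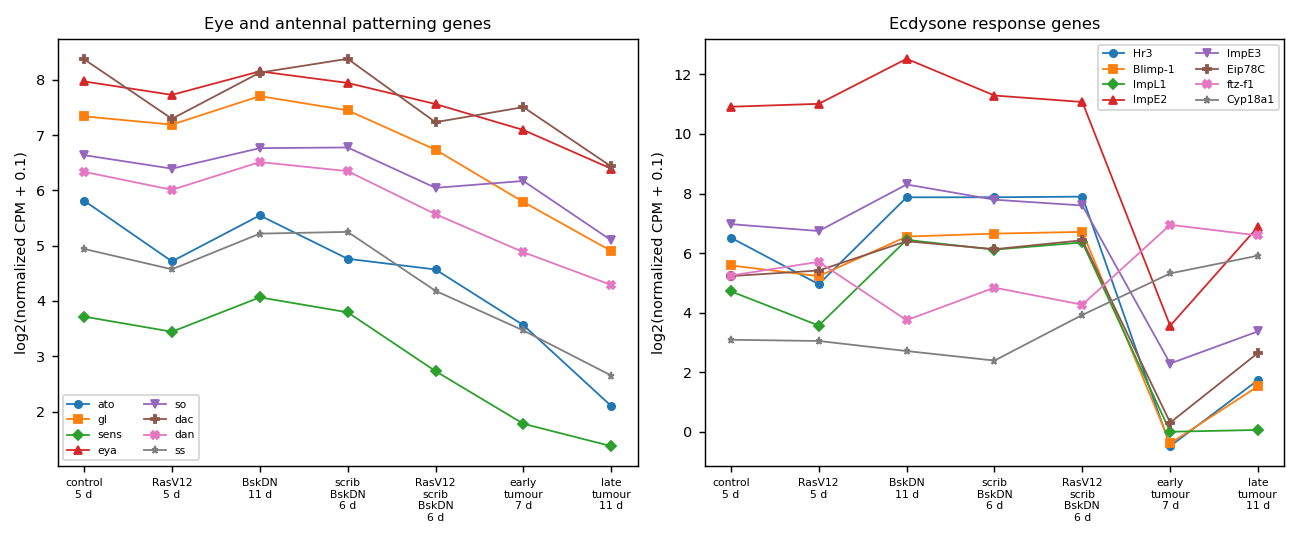
Levels of eye and antennal patterning genes (left) and of genes of the ecdysone response (right) in the 7 eye-antennal libraries, as log2 of normalized CPM plus 0.1, with 1 point per library and lines that only join the points of a gene. The late tumour has the lowest point for ato, gl, eya, so, dac, dan, ss and sens, and both tumours stand below every other library for Hr3, Blimp-1, ImpE2 and ImpL1.

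Genes that respond to ecdysone, the steroid that triggers metamorphosis, were split. Of 22 members 8 were at least 2-fold lower and 3 higher. The nuclear receptor gene Hr3 stood at 91.5 CPM in the control and 3.24 CPM in the late tumour, 28.2-fold lower (95% interval 22 to 36.7). Its level was 0.619 CPM in the early tumour, 234 CPM in BskDN at 11 days and 30.9 CPM in RasV12, so that the low level was shared by both tumours and not by the other 11-day library. The ecdysone-inducible disc genes ImpL1 (27.7-fold), ImpE2 (1926 to 118 CPM, 16.3-fold), ImpE3 (12.2-fold) and ImpE1 (4.79-fold) were all lower, as were the factor genes Blimp-1 (48.0 to 2.79 CPM, 17.2-fold) and Eip78C (6.05-fold). The higher members were Cyp18a1, whose enzyme inactivates ecdysone (8.43 to 60.3 CPM, 7.15-fold), Eip93F (8.38 to 56.0 CPM, 6.68-fold) and ftz-f1. For Eip93F the control was the lowest of the eye-antennal libraries outside the tumours, which had a median of 30.1 CPM and reached 44.7 CPM. The early tumour held 4.76 CPM of Eip93F. Enzymes that make ecdysone, which mark the ring gland and are not disc genes, were lower in 5 of 5 cases. Among them spok went from 377 to 13.0 CPM (29.0-fold) and phtm from 376 to 27.6 CPM (13.6-fold). The summed level of these enzymes was 1059 CPM in the control, 69.4 in the late tumour, 77.0 in the early tumour and 30.6 in BskDN. It was 178 CPM in RasV12 scrib BskDN, 287 in RasV12 and 766 in scrib BskDN. BskDN, the other 11-day library, was thus low for these enzymes and not for Hr3. RasV12 and RasV12 scrib BskDN also stood well below the control, and what sets these levels was not tested.

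Markers of tissues other than the disc epithelium differed strongly between the libraries, and their part in the results above was not tested. Of 10 neuron markers 9 were called higher in the late tumour, and their summed level was 150.2 CPM in the control and 556 CPM in the late tumour. The vesicular glutamate transporter gene VGlut stood at 0.537 and 40.9 CPM (76.1-fold, 95% interval 41.2 to 159), Gad1, for GABA synthesis, at 0.376 and 20 CPM (53.2-fold), and the active-zone gene brp at 18.4 and 88.5 CPM (4.81-fold). In scrib BskDN these markers were about as high, with 31.0 CPM of VGlut, 20.7 of Gad1 and 95.1 of brp, and their sum was 518 CPM. In that library Ilp8 was at 3.36 CPM, Ets21C at 15, upd2 at 1.89, upd3 at 2.41 and Mmp1 at 166 CPM, each below the late tumour. pros, at 304 CPM, and fne, at 92.7 CPM, were high in it. That library also carries Bsk[DN], so that genotype and tissue content cannot be told apart there. The glia list had 6 of 10 members higher and 1 lower, with alrm of astrocyte-like glia at 1.02 and 77.4 CPM (75.9-fold) and Eaat1 at 3.12 and 42.0 CPM (13.5-fold). The glial determinant repo was within 2-fold (23.8 and 45.0 CPM), and the summed glia level was 755 and 923 CPM. The Hox genes of the abdomen, which are off in the head discs, were higher at low level: abd-A had 1 count in the control and 5.99 CPM in the late tumour (111-fold, 95% interval 19.6 to 4438), and Abd-B 0 counts and 2.59 CPM (at least 16.1-fold). Both were higher still in scrib BskDN, at 8.81 and 6.11 CPM.

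Muscle markers went the other way, and the control was the library that stood apart in them. Of 15 muscle markers 13 were lower in the late tumour, with a median log2 fold of -5.40, and their summed level was 6651 CPM in the control, 432 CPM in the late tumour and 338 to 899 CPM in the other eye-antennal libraries. The actin gene Act57B stood at 1474 CPM in the control and 32.9 CPM in the late tumour (44.8-fold lower), and the myosin light chain gene Mlc1 at 442 and 5.79 CPM (76.3-fold lower). RasV12, the other 5-day library, held 77.6 CPM of Act57B and 17.5 CPM of Mlc1. Hemocyte markers were lower in 7 of 15 cases, including PPO2 of crystal cells (847 to 122 CPM, 6.96-fold) and Hml of plasmatocytes (2.03-fold), and the list's summed level was 2172 and 1767 CPM. Of these markers 2 were at least 2-fold higher, and the called one was vir-1, at 89.4 CPM in the control, 768 in the early and 973 in the late tumour (10.9-fold higher). Of 9 fat body markers 5 were lower, such as Lsp1alpha (52.1 to 1.15 CPM, 45.4-fold), and 3 higher, among them the lipoprotein genes apolpp (28.7 to 257 CPM, 8.96-fold) and Apoltp (30.7-fold). For apolpp the control was the lowest eye-antennal library outside the tumours, which reached 266 CPM, above the late tumour. The salivary glue list had 6 of 8 genes lower, with a summed level of 55.6 CPM in the control and 18.6 CPM in the late tumour. Both were far below RasV12 (1752 CPM) and scrib BskDN (1162 CPM), and the remaining eye-antennal libraries held 10.6 to 20.7 CPM. Tracheal markers (0 higher and 1 lower of 6) and germline genes (none past 2-fold of 5) differed little.

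**Figure D4:**
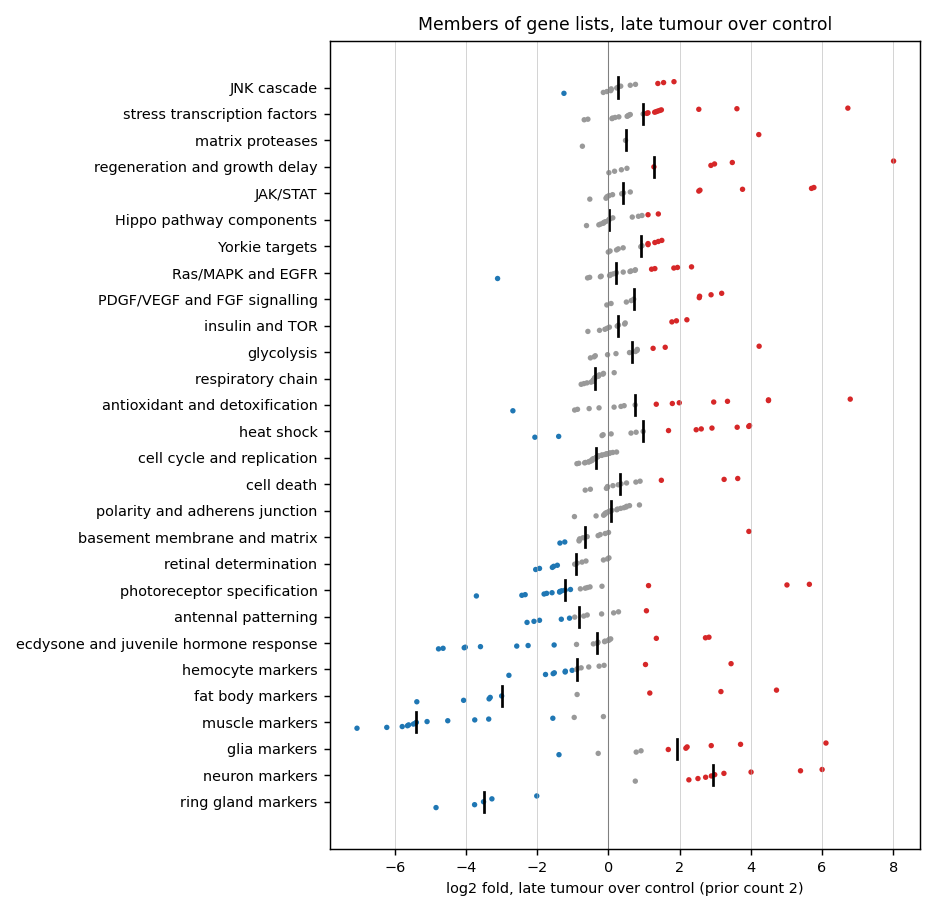
Log2 fold, late tumour over control, of each considered member of the gene lists named on the vertical axis, with members at least 2-fold higher in red, at least 2-fold lower in blue and the others in grey, and a black bar at each list's median. Neuron markers lie to the right with a median of 2.94, and muscle markers to the left with a median of -5.40.

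Mucin and peritrophin genes, whose products line the gut and other chitin-bearing surfaces, were among the largest folds. Of the 15 largest differences higher in the late tumour, taken among genes that reached 20 CPM and with genes at 0 counts in the control ranked by their lower bound, all were more than 4-fold higher there than in each other eye-antennal library. Muc96D, a mucin gene, had 1 count in the control and 4642 in the late tumour (232 CPM, 4311-fold, 95% interval 773 to 170329). Its level was 0.0952 CPM in the early tumour and at most 0.568 CPM in any other library, so that the late tumour stood alone. The neighbouring genes Peritrophin-15a and Peritrophin-15b on chromosome 2L, whose family makes chitin-binding proteins of the gut lining, were 708-fold and 1310.1-fold higher, at 266 and 141 CPM in the late tumour. Muc26B, ranked just outside by its bound, had 0 counts in the control and 69.7 CPM in the late tumour (at least 433-fold). The others of the 15 are named only by annotation number: CG7017 (4259-fold), CG12934, CG7714, CG7567, CG11893, CG5084, CG10725, CG7298, CG14300, CG34282, CG43896 (at least 589.8-fold) and CG7715 (452-fold). Some of them lie close together: CG7714 and CG7715 start at 18725399 and 18727573 on chromosome 3R, CG14300 and CG34282 at 18693293 and 18695252 on the same arm, and CG7298 and CG7017 at 20202070 and 20210292 on chromosome 3L. Of 24 peritrophin, mucin and chitinase genes 10 were higher by 2-fold or more and 4 lower.

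**Figure D5:**
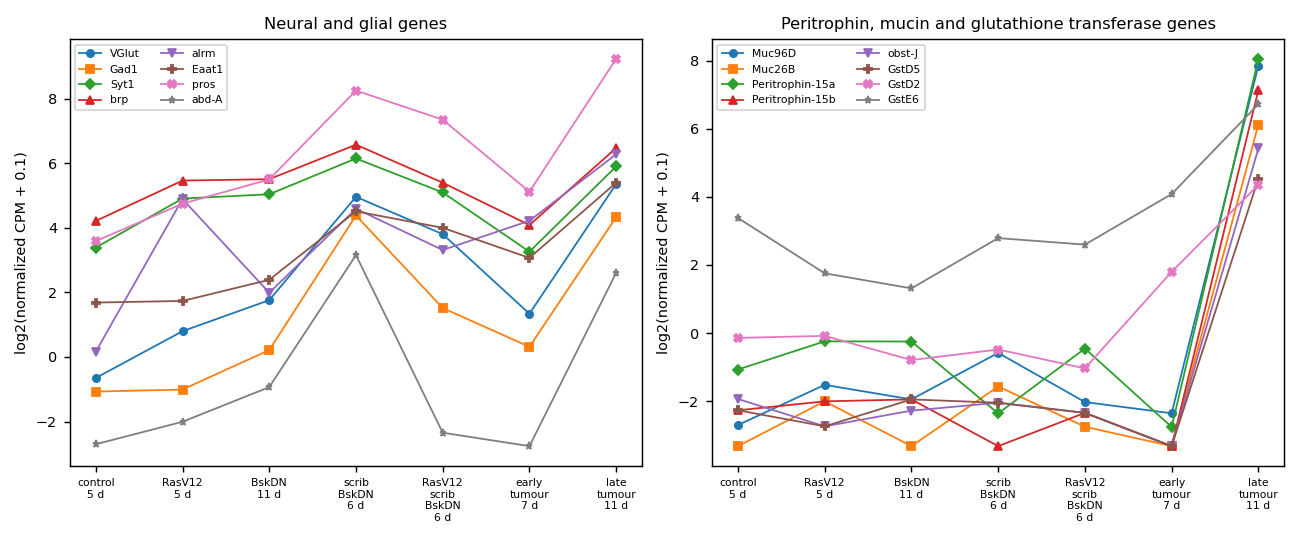
Levels of neural, glial and Hox genes (left) and of peritrophin, mucin, chitin-binding and glutathione transferase genes (right) in the 7 eye-antennal libraries, as log2 of normalized CPM plus 0.1, with 1 point per library and lines that only join the points of a gene. VGlut, Gad1, brp and abd-A are high in both scrib BskDN and the late tumour, whereas Muc96D, Muc26B, obst-J and both Peritrophin-15 genes are high in the late tumour alone.

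At the other end stood cuticle and odorant-binding protein genes. All 15 of the largest differences in that direction belonged to the genes that stood apart in the control library. Lcp3, a larval cuticle protein gene, stood at 332 CPM in the control and had 2 counts in the late tumour (3331-fold lower, 95% interval 922 to 27509), with 0.248 CPM in RasV12 of the same age and 59.8 CPM in scrib BskDN. Its neighbours Lcp2 and Lcp4 were 1432-fold and 1546-fold lower, and Lcp9 2163-fold. The Lcp genes are similar in sequence, so that the split of counts among them is uncertain. The cuticle genes Vajk2 and Vajk3 went from 712 and 714 CPM in the control to 0.648 and 0.599 CPM. Obp56a, Obp56e and Obp56h of the odorant-binding family were 1207-fold, 1726-fold and 1024-fold lower. Nplp4, CG15597, CG17105, CG32603 (at least 1541-fold), CG10953 and CG7465 completed the set. Of 138 cuticle protein genes matched, 79 reached 1 CPM in a library and were considered. Some passed only through 1 of the 2 libraries compared, such as Cpr65Ax1 through the control and obst-G through the late tumour. Among the 79, 52 were at least 2-fold lower and 12 higher, and these counts depend in part on that filter. The higher ones included the chitin-binding obst-J (266-fold, 42.8 CPM in the late tumour).

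Heat shock genes had 7 of 15 members higher and 2 lower. Hsp68 stood at 55.6 CPM in the control and 307 CPM in the late tumour (5.53-fold), with 1325 CPM in scrib BskDN. The Hsp70 copies were higher as well, but they are nearly identical in sequence and reads shared among them were tallied apart, so that their values are uncertain. Eye-antennal libraries outside the tumours reached 171 CPM for Hsp70Bc, 37.2 for Hsp70Ab and 36.0 for Hsp70Bbb. The late tumour was below these, at 44.3, 12.6 and 13.2 CPM. For Hsp70Bb it was above them, at 1127 against at most 761 CPM. The small heat shock genes Hsp27 and Hsp23, which ecdysone is known to induce, were lower, Hsp27 from 2034 to 485 CPM (4.19-fold) and Hsp23 from 2186 to 828 CPM (2.64-fold). Both were lower still in the early tumour, at 291 and 157 CPM. Of 13 antimicrobial peptide genes 5 were higher and 3 lower, and AttA was the called one (0.537 to 5.59 CPM, 10.4-fold). In the Toll and Imd list PGRP-SA, a sensor of bacterial wall, was 3.13-fold higher (17.3 to 54.1 CPM) and PGRP-LC 3.32-fold lower. The sex-determination factor gene dsx was 4.12-fold lower (53.4 to 13.0 CPM), while the male-specific RNA roX1 was at 502 and 680.2 CPM in the control and the late tumour.

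Some highly expressed genes outside the lists and the naming rule were chosen after their values were seen. Dgp-1 stood at 72.9 CPM in the control, 1077 in the early and 4354 in the late tumour (59.7-fold, 95% interval 56.6 to 63.0), with at most 124 CPM in the other eye-antennal libraries. The amino acid transporter gene path was 8.12-fold higher (201 to 1634 CPM) and spz3, of the Spätzle ligand family, 25.1-fold (12.7 to 319 CPM). The long noncoding RNA cherub, known from neural stem cell tumours of the fly brain, was 27.7-fold higher (19.4 to 537 CPM). Of these, cherub was also high in scrib BskDN (408 CPM), where the neuron markers were high.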

How the data were processed

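RNA of dissected discs was extracted with a spin-column kit, per the labels' protocols. The authors deposited raw counts per gene as a table with 1 column per library. The submitters' processing notes name TopHat2 as aligner and HTSeq as counter. Overlapping and antisense genes cannot be told apart with certainty, because the strand setting is not stated. Neither that setting nor the genome build, annotation or versions was given in the sources used here. Reads aligned to several places were tallied apart (14.8 to 27.8% per library), so that near-identical copies are uncertain. Reads in no gene (3.41 to 7.33%) and reads that fit several genes (1.46 to 1.83%) were also left out with the 5 tally rows. The labels used here name no sequencing batch.

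Identifiers were looked up in a BDGP6 annotation for names and positions. Of 15348 identifiers 14639 (95.4%) had a name. Of 688 list entries 640 were matched, 11 of them by an older symbol, and a list covers its matched entries only.

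Scaling used the trimmed mean of M values over all 8 libraries (edgeR 4.0.16, R 4.3.3), and log2 CPM used a prior count of 2. A gene was considered if any library reached 1 CPM, which held for 10029. That library could be the control or the late tumour, so that list members could enter through the library where they were high. Fold intervals are exact conditional binomial (Clopper-Pearson) 95% intervals and compare the 2 libraries, not the conditions, since reads are not independent molecules. Where a library had 0 counts, the fold was set against a floor of 3 counts (0.142 to 0.181 CPM, by library) and given as at least that size. No p-value was computed. DESeq2 1.42.0 gave alternative size factors only. The calling steps were run on simulated counts that held counting error only. Such a run cannot show how often the calls err between 2 real libraries.

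Named genes were the perturbed and marker genes, in each direction the 15 called genes with a name that differed most and reached 20 CPM, list members called, at most 4 examples per list and direction, and every member of 6 short lists. The members and the 58 lists were chosen with earlier results of these data known. Some list members named as lying within the threshold go beyond that rule and were chosen after their values were seen. The alternatives tried were the scaling, the prior count, the level and fold thresholds, and leaving out groups of genes tied to particular libraries.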

Additional observations from a re-analysis of the deposited data

Results flagged for a closer look

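Reads aligned to several places, which enter no gene count, made up 27.8% of the counted and tallied reads in the late tumour and 21.1% in the control. The range over the other libraries started at 14.8%, and the late tumour was the highest of the 8. The value was singled out because it lies outside the gene counts that the comparison uses and above the level in the control. Which sequences these reads came from was not tested.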

How the results depend on the processing

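The counts of called genes moved by less than 1.5 times under library totals (602 higher and 398 lower), DESeq2 size factors (597 and 402), scaling on the 2 libraries alone (601 and 400) and prior counts of 0.5 (602 and 400) and 5 (582 and 387). They moved by more with a minimum of 20 CPM (288 and 240), 1 CPM for the higher genes (897), a 2-fold threshold (1076 and 724) or an 8-fold threshold (345 and 247). Leaving out the marker lists and the 157 genes that stood apart in the control (by 4-fold or more) left 224 lower genes. Other alternatives were added after seeing the data. Without genes that also stood near the late tumour's level in scrib BskDN, the other library with high neuron markers, 324 genes were higher. Without genes near that level in BskDN, the other 11-day library, 562 were higher and 227 lower. Without the genes that stood apart in the control 238 were lower, and without those whose control level was 4-fold or more that of RasV12 of the same age 173 were lower. Medians of all 58 lists and the folds of 194 named genes kept their direction under each scaling tried. With a prior count of 5 the members at least 2-fold higher went from 2 to 1 in the Wnt list and the hemocyte markers and from 1 to 0 in the proteasome. No paired analysis was possible because each group had 1 library, and for the same reason no replicate could be left out. The floor of 3 counts stands for 0.161 CPM in the control and 0.150 CPM in the late tumour.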

Other observations

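Other gene families differed in both directions. Of 63 cytochrome P450 genes 19 were at least 2-fold higher in the late tumour and 18 lower. Cyp6a17, of a subfamily known for metabolising foreign compounds, stood at 1.24 CPM in the control, 51.9 in the early and 133 in the late tumour (107-fold higher, 95% interval 71.4 to 169.6). In the other eye-antennal libraries it was at 0.0473 CPM in scrib BskDN and 27.0 to 27.5 CPM in the rest, so that the control and scrib BskDN were the low ones. Cyp313a2, Cyp313a3 and Cyp313a5 were among the genes that stood apart in the control, at 17.0, 17.1 and 14 CPM there and at most 1 count in the late tumour. Of 51 odorant-binding protein genes matched, 22 reached 1 CPM in a library, which could be the control. Among these 18 were lower, with a median log2 fold of -4.19 (-3.88 with genes at 0 counts set to their bound), and 9 of them stood apart in the control. The exception was Obp44a, from 37.6 to 614 CPM (16.3-fold higher), which was also high in scrib BskDN (409 CPM).

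All 7 considered Osiris genes, a clustered family of cuticle-bearing tissues, were at least 2-fold lower, with a median log2 fold of -3.02. Osi24 went from 25.2 to 2.59 CPM (9.71-fold lower) and Osi7 from 6.34 CPM to 1 count. The serine protease inhibitors Spn43Aa and Spn100A were 21.3-fold and 25.0-fold lower, from 274 to 12.9 CPM and from 73.6 to 2.94 CPM. Among 28 tetraspanin genes 6 were higher, such as Tsp5D (6.23-fold), and 9 lower. The proteasome genes had a median log2 fold of -0.38 over 35 members, and the late tumour was the lowest of the 7 eye-antennal libraries for 23 of them.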
